A study of Mus musculus with 8 samples.

Results

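The insulin-like growth factor (IGF) axis was followed through 10 genes in mouse occipital cortex: the ligand genes Igf1 and Igf2, the receptor genes Igf1r and Insr, the adaptor gene Irs1, and the binding protein genes Igfbp2, Igfbp3, Igfbp4, Igfbp5 and Igfbp6. They were picked by symbol, each symbol stood on a single row, and all 10 were found among the 24344 distinct symbols of the table and were among the 12377 genes that passed the filter on low values. RNA was taken from cortex homogenates of C57BL/6J mice aged 35 days, dissected from the occipital pole, where the visual areas lie. A group of 4 libraries came from mice kept for 48 h without food and a group of 4 from mice fed ad libitum. The labels name no genetic change or other agent in either group and do not say whether a library is 1 animal or a pool, so that p-values measure only the spread between these libraries. Values are FPKM, fragments per kilobase of transcript scaled to the fragments mapped, which allows levels of different genes to be set side by side.

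IGF-I and IGF-II are small secreted proteins built like insulin. They act through the IGF-I receptor and the insulin receptor, tyrosine kinases that pass the signal through insulin receptor substrate adaptors to PI3 kinase and AKT, a route to growth, protein synthesis and glucose uptake. IGF binding proteins are secreted proteins that hold the ligands outside the cell, set how long they last and how much reaches the receptors, and are cut by proteases that set the ligand free. In the liver, fasting is known to lower Igf1 and to change several binding proteins. In the brain, Igf1 is made locally by neurons and glia, while Igf2 in the adult comes mostly from the meninges and choroid plexus and from vessels.

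The members that passed the test after 48 h without food all encode binding proteins. Igfbp3 and Igfbp4 rose, Igfbp2 and Igfbp5 fell, and Igfbp6, both ligand genes, both receptor genes and Irs1 did not pass the test. In each of the 4 that passed, the ranges of fasted and fed libraries did not overlap. Thus 2 of 10 members were called higher and 2 lower (limma, Benjamini-Hochberg adjusted p under 0.05 over all tested genes), where 9.56% of tested genes were called higher, 16.3% lower and 25.8% in either direction. Groups without overlap were found in 4 of the 10 and in 27.6% of tested genes (11.1% higher and 16.5% lower). Against these shares, a count of 4 in 10 is not read as particular to these genes. The median log2 change was -0.025 over the members and -0.024 over all tested genes.

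The libraries set limits. Estimated depth was 17500000 to 21900000 fragments (35.1 to 43.8 for each FPKM of a 2 kb transcript), and FPKM totals ranged from 253470.2 to 360010.3, the highest in ad libitum replicate 2, where a single microRNA gene, Mir684-1, was listed at 40326.4. Replicates 1 and 3 of the fasted group and 1 of the fed group held Y-linked transcripts and Xist at 0.0495 FPKM or less, and replicates 2 and 4 of both groups Xist with Ddx3y at 0.0225 FPKM or less. Ad libitum replicate 3 held both, with Xist at 32.2 FPKM against 62.9 to 77.5 in the Xist libraries, and Ddx3y at 5.67 against 10.5 to 14.4. Without it Igfbp3, Igfbp4, Igfbp2 and Igfbp5 had log2 changes of 0.99, 0.33, -0.67 and -0.49, and each was still called. Scaling moved the balance of all calls: 1183 genes were higher and 2015 lower as deposited, 1753 and 1936 after median-ratio scaling, 1792 and 1909 after quantile normalization, and 1585 and 534 after scaling to equal sums, which shifted the median of all genes by 0.11 on the log2 scale. The 8 markers of excitatory neurons summed to 1031.7 to 1210.2 FPKM in fed and 1099.2 to 1260.9 FPKM in fasted libraries. Of 8 choroid plexus and ependyma markers 6 stayed under 1 FPKM in each library: Kl, Folr1, Kcne2, Clic6, Aqp1 and Prlr. Aqp1 was nevertheless higher in fasted libraries without overlap. Ttr was at 0.188 to 0.888 FPKM in fed and 0.700 to 2.39 in fasted libraries. The 8 summed to 2.05 to 3.04 FPKM in fed and 2.76 to 4.94 in fasted libraries, which overlap.

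The promoters of the 4 binding protein genes that changed are shown for their letters, since transcript data alone do not say where control acts. Each line holds the 250 bases before the RefSeq transcript start, on the gene's strand, in GRCm38.p6. Capitals mark the hexamer AGAACA, a monomer site of the glucocorticoid receptor, which was searched on both strands together with the FoxO motif GTAAACA.
Igfbp3, chr11:7213924-7214173, minus strand: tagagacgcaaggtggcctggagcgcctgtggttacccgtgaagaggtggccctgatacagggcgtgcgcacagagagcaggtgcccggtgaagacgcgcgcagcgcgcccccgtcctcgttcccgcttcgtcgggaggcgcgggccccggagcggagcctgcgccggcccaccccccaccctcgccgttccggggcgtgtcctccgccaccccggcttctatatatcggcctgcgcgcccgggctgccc
Igfbp4, chr11:99040994-99041243, plus strand: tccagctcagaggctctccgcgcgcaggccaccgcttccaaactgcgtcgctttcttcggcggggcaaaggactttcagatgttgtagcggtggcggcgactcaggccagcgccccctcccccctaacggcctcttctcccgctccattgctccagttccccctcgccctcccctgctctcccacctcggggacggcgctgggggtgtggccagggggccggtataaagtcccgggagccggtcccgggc
Igfbp2, chr1:72824230-72824479, plus strand: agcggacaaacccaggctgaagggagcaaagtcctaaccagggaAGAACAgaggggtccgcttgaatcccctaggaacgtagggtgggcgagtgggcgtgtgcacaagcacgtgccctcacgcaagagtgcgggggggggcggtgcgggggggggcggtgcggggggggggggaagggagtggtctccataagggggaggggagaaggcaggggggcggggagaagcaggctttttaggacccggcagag
Igfbp5, chr1:72874866-72875115, minus strand: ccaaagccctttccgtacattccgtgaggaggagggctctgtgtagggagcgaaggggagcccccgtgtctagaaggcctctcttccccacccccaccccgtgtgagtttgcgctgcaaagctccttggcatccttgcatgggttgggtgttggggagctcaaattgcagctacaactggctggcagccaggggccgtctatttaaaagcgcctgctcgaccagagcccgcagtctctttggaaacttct
Over windows reaching 50 bases past the start, RefSeq gave 13 windows for 9 members. The hexamer was present in 2 of the 13. These were a window of Igfbp2, 206 bases before the start on the gene's strand, and a window of Igf2, 85 bases before the start on the strand opposite the gene. It was present in 19.0% of 32851 such windows of all genes. The FoxO motif was in none of the 13 and in 3.65% of all windows. A missing match says only that these letters are not in the window. The windows of Igfbp3 and Igfbp4, the genes that rose, were rich in CG pairs, with 37 and 27, and those of Igfbp2 (at the start shown) and Igfbp5, which fell, held 18 and 10. Those of Igf1r and Irs1, which were not called, held 48 and 28. The median over all windows was 7.

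Igfbp3 encodes the main carrier of IGFs in blood plasma, which is also secreted locally by many cells. It was at 2.16, 3.01, 2.97 and 2.49 FPKM in ad libitum replicates 1 to 4 and at 6.38, 5.74, 5.75 and 6.33 FPKM in the fasted ones. Every fasted library was thus above every fed one, and the spread within each group was small beside the gap between them. Fed libraries averaged 2.66 ± 0.407 FPKM (SD, n = 4) and fasted ones 6.05 ± 0.352 FPKM (SD, n = 4), a ratio of 2.28. On the scale of log2(FPKM + 1), where changes of low genes come out too small, the log2 change was 0.95 (SE 0.083, limma adjusted p = 5.02e-05). It ranked 21st from the top among the 12377 tested genes. Leaving out any library gave log2 changes from 0.88 to 0.999. Igfbp3 lies on chromosome 11 at 7206086 to 7213923 on the minus strand (GRCm38, here and for the other genes).

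Its neighbour Igfbp1, whose protein is best known from the liver, where insulin holds it down and fasting raises it, ends 3539 bp away on the same chromosome. Igfbp1 was at 0 to 0.104 FPKM in all 8 libraries and was not tested. In this pair of neighbours, then, transcripts of Igfbp3 alone were above 1 FPKM.

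Igfbp4 encodes a binding protein that holds IGFs away from their receptors until the protease PAPP-A cuts it. It was at 24.6, 22.5, 23.6 and 18.7 FPKM in the fed libraries and at 27.2, 26.4, 27.5 and 29.3 FPKM in the fasted ones. The groups did not overlap, but the gap was narrow, from 24.6 in the highest fed library to 26.4 in the lowest fasted one. Fed libraries averaged 22.4 ± 2.57 FPKM (SD, n = 4) and fasted ones 27.6 ± 1.22 FPKM (SD, n = 4). The log2 change was 0.30 (SE 0.077, limma adjusted p = 0.0156). This is the smallest of the 4 changes, and its adjusted p ran up to 0.0410 over all alternatives, the highest without fasted replicate 4. Igfbp4 lies on chromosome 11 at 99041244 to 99054392, far from Igfbp3.

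Igfbp2 encodes the binding protein known as abundant in the developing brain, in astrocytes and in cerebrospinal fluid. It was at 14.3, 14.2, 14.1 and 10.9 FPKM in the fed libraries and at 8.11, 9.30, 6.98 and 7.19 FPKM in the fasted ones. All fasted libraries lay below the lowest fed one, ad libitum replicate 4, which stood apart from the other 3. Fed libraries averaged 13.4 ± 1.63 FPKM (SD, n = 4) and fasted ones 7.89 ± 1.06 FPKM (SD, n = 4). The log2 change was -0.69 (SE 0.099, limma adjusted p = 8.15e-04). It was 42nd from the bottom among tested genes. Without ad libitum replicate 4 the log2 change was -0.78.

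Igfbp5 encodes a binding protein that also binds the extracellular matrix, and it was the member with the highest level. It was at 39.0, 40.8, 40.4 and 37.2 FPKM in the fed libraries and at 29.0, 29.7, 30.1 and 22.3 FPKM in the fasted ones. The fed libraries were close together, and among the fasted ones replicate 4 was the lowest. Fed libraries averaged 39.4 ± 1.61 FPKM (SD, n = 4) and fasted ones 27.8 ± 3.66 FPKM (SD, n = 4). The log2 change was -0.50 (SE 0.086, limma adjusted p = 0.00213). Without fasted replicate 4 the log2 change was -0.40 (limma adjusted p = 0.00119). Igfbp2 and Igfbp5 are neighbours on chromosome 1 that run towards each other, Igfbp2 at 72824503 to 72852474 on the plus strand and Igfbp5 at 72857932 to 72874884 on the minus strand, with 5457 bp between them. Igfbp2 was at 0.293 to 0.366 of the Igfbp5 level in fed libraries and at 0.232 to 0.322 in fasted ones, which overlap, and the difference between their changes was not tested.

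Igfbp6 encodes a binding protein that prefers IGF-II. It was at 14.1, 13.3, 11.9 and 9.34 FPKM in the fed libraries and at 11.96, 11.9, 11.6 and 11.6 FPKM in the fasted ones. The fasted libraries all lay inside the fed range. The log2 change was -0.029, with a 95% interval from -0.24 to 0.19 and limma adjusted p = 0.851, and it turned to 0.0885 with equal-sum scaling.

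**Figure D1:**
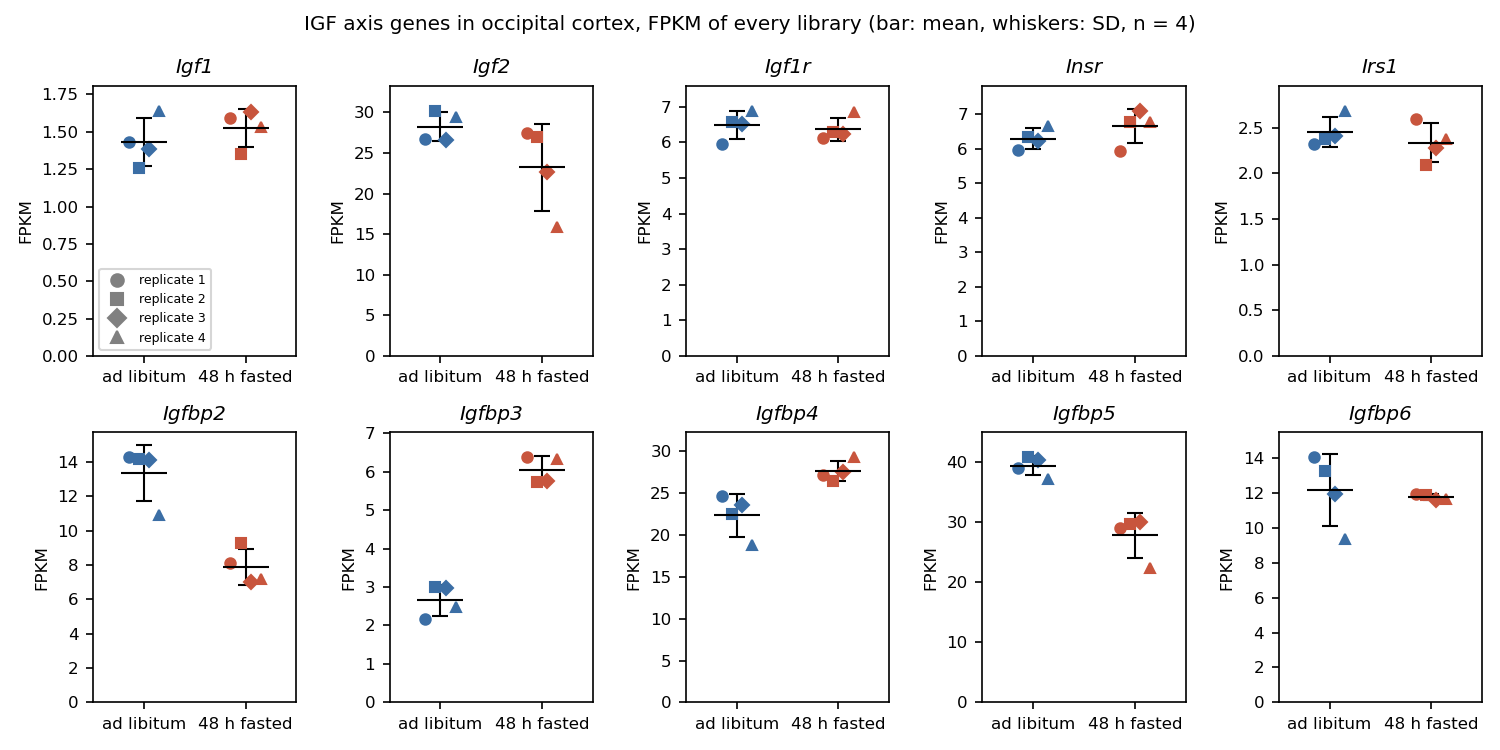
FPKM of the 10 genes in every library, with ad libitum libraries in blue and fasted ones in red, a symbol for each replicate number, a bar for the mean and whiskers for the SD (n = 4 a group). Igfbp3 and Igfbp4 of fasted libraries lie above all fed ones, Igfbp2 and Igfbp5 below, and the other 6 genes overlap.

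While 2 binding proteins rose and 2 fell, the groups parted in the make-up of the sum of the 5. The summed level of the 5 was 78.7 to 94.1 FPKM in fed libraries and 76.8 to 83.1 in fasted ones. These overlap through ad libitum replicate 4 (78.7), without which the fed range is 93.0 to 94.1, and the sum was lower in the fasted library of all 4 replicate numbers. Within this sum, a ratio that does not depend on how a library is scaled, Igfbp5 held 43.9% ± 2.44 (SD, n = 4) in fed libraries and 34.2% ± 3.46 (SD, n = 4) in fasted ones. Igfbp4 held 24.8% ± 1.13 and 34.1% ± 2.79 (SD, n = 4 each), Igfbp2 14.8% ± 0.640 and 9.723% ± 1.120 (SD, n = 4 each), and Igfbp3 2.96% ± 0.446 and 7.47% ± 0.625 (SD, n = 4 each). For these 4 the 2 groups did not overlap, while Igfbp6, at 11.9% to 14.9% and 14.1% to 15.2%, did. The shares sum to a fixed total, so a rise in some must lower others. The 4 are also the genes already called, so their shares restate those changes. No test was made on these shares.

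The order of levels changed with them. In fed libraries Igfbp5 stood above Igf2 and Igf2 above Igfbp4, each without overlap. In fasted libraries Igfbp5 and Igfbp4 were at 27.8 and 27.6 FPKM and overlapped, Igfbp5 being above Igfbp4 in 3 of 4 libraries, and Igf2 overlapped with Igfbp4. Igfbp3 overlapped with Irs1 in fed libraries (2.66 and 2.45 FPKM), and with the receptor gene Igf1r in fasted ones (6.05 and 6.37 FPKM). Igf1 was the lowest of the 10 in both groups.

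**Figure D2:**
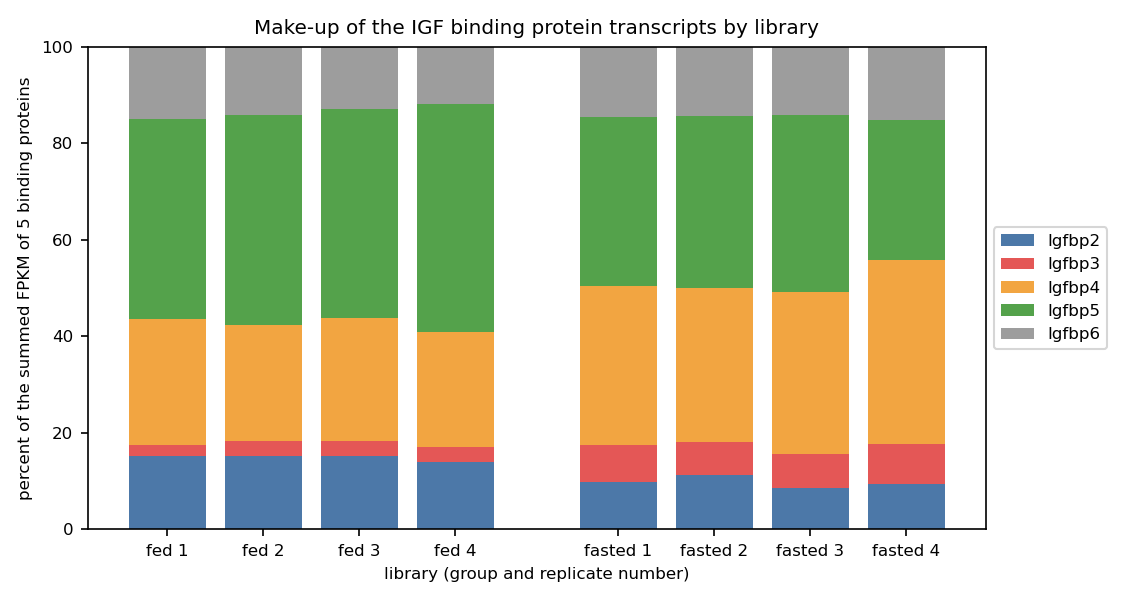
Stacked bars give the percent that each of 5 binding protein genes holds of their summed FPKM, for each of the 8 libraries (fed is ad libitum). The Igfbp3 and Igfbp4 segments are larger, and those of Igfbp2 and Igfbp5 smaller, in all 4 fasted libraries.

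Of the ligand genes, Igf1 was low in cortex. It was at 1.44, 1.26, 1.39 and 1.64 FPKM in the fed libraries and at 1.59, 1.35, 1.63 and 1.53 FPKM in the fasted ones, so that the fasted values lay within the fed range. The log2 change was 0.057, with a 95% interval from -0.10 to 0.21 and limma adjusted p = 0.590. A fall as large on this scale as that of Igfbp2 or Igfbp5 lies outside this interval, though changes of so low a gene come out too small on it. The deposited values are per gene and do not part the transcript forms of Igf1, of which GENCODE lists 8.

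Igf2, an imprinted gene, was the more abundant ligand gene. It was at 26.8, 30.2, 26.7 and 29.4 FPKM in the fed libraries and at 27.5, 27.0, 22.6 and 15.9 FPKM in the fasted ones. The fasted group was the more spread, with replicate 4 the lowest of all 8 libraries. Fed libraries averaged 28.3 ± 1.84 FPKM (SD, n = 4) and fasted ones 23.2 ± 5.39 FPKM (SD, n = 4). The log2 change was -0.30 (95% interval -0.61 to 0.0094, limma adjusted p = 0.140), and -0.13 without fasted replicate 4. At 18.6, 24.1, 19.2 and 17.9 times the level of Igf1 in the fed libraries, and 17.3, 20.006, 13.9 and 10.3 times in the fasted ones, Igf2 was above Igf1 throughout.

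The level of Igf2 went along with markers of fibroblasts and meninges, a list that holds collagen genes, Dcn and transporters of the leptomeninges. The summed level of its 14 genes was 41.8, 64.3, 46.4 and 58.4 FPKM in ad libitum replicates 1 to 4 and 52.4, 56.4, 43.0 and 32.6 FPKM in the fasted ones. Fasted replicate 4 was the lowest in both measures and ad libitum replicate 2 the highest in both. Of the 12 tested markers 3 were lower in fasted cortex, Col1a1, Slc22a6 and Crabp2, and none was higher, with a median log2 change of -0.19, where 16.3% of all tested genes were called lower. The part of these markers in the level of Igf2 was not tested. In bulk tissue, fewer cells of a type and less RNA per cell cannot be told apart. In GENCODE the protein-coding gene Gm49394 overlaps Igf2 on the same strand and Igf2os lies opposite. Igf2os was at 0.0427 to 0.0983 FPKM, and strandedness is not given, so reads of a gene and its antisense partner cannot be told apart.

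**Figure D3:**
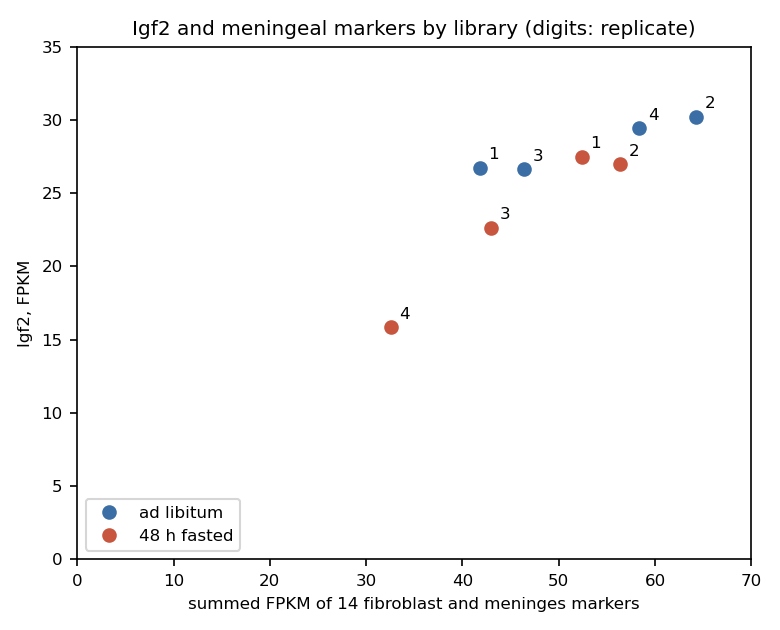
Igf2 (FPKM) against the summed FPKM of 14 fibroblast and meninges markers, a point for each of the 8 libraries with its replicate number, blue for ad libitum and red for fasted. Fasted replicate 4, at 15.9 and 32.6 FPKM, is lowest on both axes, and ad libitum replicate 2, at 30.2 and 64.3 FPKM, is highest on both.

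Igfbp levels can be set beside the same cell type lists. The summed mural markers (pericytes and smooth muscle) were at 45.4 to 54.7 FPKM in fed and 34.01 to 38.9 in fasted libraries, and the summed microglial markers at 115.3 to 159.2 and 99.4 to 114.7, both without overlap. Mural markers fell in 2 of 5 tested genes and microglial ones in 5 of 10, and none rose, where 16.3% of all tested genes were called lower and 9.56% higher. Endothelial markers summed to 77.5 to 92.2 and 65.8 to 78.2 FPKM, with 1 of 8 lower. Astrocyte markers summed to 804.6 to 865.5 and 769.3 to 844.0 FPKM, with 4 of 8 lower, among them Aqp4 with a log2 change of -0.79. Oligodendrocyte precursor markers were lower in 2 of 4 and those of excitatory neurons in 3 of 8. No list had more than 1 marker called higher, that of mature oligodendrocytes (1 of 6). Igfbp5, like Igf2 and the summed fibroblast and meninges markers, was lowest in fasted replicate 4 (22.3 FPKM) and highest in ad libitum replicate 2 (40.8 FPKM). Igfbp2, Igfbp3 and Igfbp4 had their lowest and highest values in other libraries or in only 1 of these. The part of any of these markers in the levels of Igfbp2, Igfbp3, Igfbp4 and Igfbp5 was not tested.

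The receptor genes were level with each other. Igf1r was at 5.94, 6.57, 6.50 and 6.89 FPKM in the fed libraries and at 6.11, 6.29, 6.24 and 6.85 FPKM in the fasted ones. Insr was at 5.96, 6.33, 6.22 and 6.67 FPKM and at 5.95, 6.79, 7.11 and 6.78 FPKM. Neither gene parted the groups. The log2 change of Igf1r was -0.020 (95% interval -0.15 to 0.11, limma adjusted p = 0.830; 0.0055 with median-ratio scaling) and that of Insr 0.068 (95% interval -0.069 to 0.20, limma adjusted p = 0.452). The ratio of Insr to Igf1r was 0.957 to 1.003 in fed and 0.973 to 1.14 in fasted libraries, which overlap.

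Irs1, which encodes the adaptor first in line after both receptors, was at 2.32, 2.37, 2.41 and 2.69 FPKM in the fed libraries and at 2.60, 2.09, 2.28 and 2.37 FPKM in the fasted ones. Its log2 change was -0.048 (95% interval -0.20 to 0.10, limma adjusted p = 0.634; 0.038 with equal-sum scaling). The intervals of Igf1, Igf1r, Insr and Irs1 all lie between -0.20 and 0.21 on the scale of log2(FPKM + 1). Changes of low genes such as Igf1 and Irs1 come out too small on it. With 0.1 added to FPKM in place of 1, their log2 changes were 0.0905 and -0.0662.

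In ad libitum replicate 4, 8 of the 10 members were at an extreme of the fed group. Igf1, Igf1r, Insr and Irs1 were each the highest of the fed group there, and Igfbp2, Igfbp4, Igfbp5 and Igfbp6 each the lowest, while Igf2 and Igfbp3 were at neither end. The longest GENCODE transcripts of the former are 7052, 11409, 9355 and 9144 bases long, and those of the latter 1307, 3831, 6006 and 1112. Those of Igf2 and Igfbp3, which were at neither end, are 4722 and 2421 bases long, and that of Igfbp3 is shorter than those of Igfbp4 and Igfbp5. The part of transcript length in these values was not tested. Any library in a group of 4 is often at an extreme, and the share over all tested genes was not counted. The count of 8 in 10 is therefore not read as particular to these genes. Without this library the log2 changes of Igfbp3, Igfbp4, Igfbp2 and Igfbp5 were 0.93, 0.22, -0.78 and -0.52, and each was called.

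Other genes of the pathway were read from 4 lists with 70 genes in all, of which 49 were tested, 7 rose and 5 fell, with a median log2 change of 0.022. These 12 calls in 49 are near the 25.8% of all tested genes called. Among ligand and receptor relatives 1 of 6 tested genes rose and none fell. This was Igf2r, the mannose-6-phosphate receptor that clears IGF-II, at 4.004 to 4.79 FPKM in fed and 5.02 to 5.49 FPKM in fasted libraries, with a log2 change of 0.22 (limma adjusted p = 0.0240). Its call ended without ad libitum replicate 1 or 3 (limma adjusted p = 0.0687 and 0.0692) or fasted replicate 1, 2 or 4 (0.0526, 0.0533 and 0.0594), and Airn lies antisense to part of it. Irs2, the second adaptor of the receptors, is named here after its values were seen. It was at 4.74, 7.01, 7.92 and 13.1 FPKM in fed and at 11.5, 10.6, 14.6 and 16.5 FPKM in fasted libraries, higher in the fasted library of every replicate number, but ad libitum replicate 4 overlapped with the fasted group. Its log2 change was 0.70, with an SE of 0.27 and a limma adjusted p = 0.0984, which was 0.0142 without ad libitum replicate 4 and 0.00778 when replicate number entered as a block. The insulin genes Ins1 and Ins2 were listed at 0 in every library.

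Genes for proteases that cut binding proteins, and for inhibitors of these proteases, gave no call in 4 tested genes. Pappa and Pappa2, which encode the pappalysins, were at 0.127 FPKM or lower throughout and were not tested. Pappa was lower in fasted libraries without overlap, at 0.0092 to 0.0245 FPKM against 0.0314 to 0.0677 in fed ones. The serine protease gene Htra1 was at a mean of 43.8 FPKM in fed and 51.6 in fasted libraries, a log2 change of 0.23 with limma adjusted p = 0.116. It was 0.0347 with median-ratio scaling, 0.00943 with equal-sum scaling, 0.0184 with quantile normalization and 0.0189 when replicate number entered as a block. The metalloprotease gene Adamts1 had a log2 change of 0.16 (limma adjusted p = 0.535).

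In the growth hormone axis, which drives Igf1 in the liver, 1 of 6 tested genes rose and 1 fell. Socs2, an inhibitor of growth hormone receptor signalling, was at 4.51, 5.55, 6.26 and 5.83 FPKM in fed and at 6.90, 7.31, 7.52 and 7.34 FPKM in fasted libraries. These groups did not overlap, and the log2 change was 0.35 with limma adjusted p = 0.00957. Ghr, the growth hormone receptor gene, was at 2.35 to 3.05 FPKM in fed and 1.92 to 2.46 in fasted libraries, which overlap, with a log2 change of -0.26 and limma adjusted p = 0.0362. This call ended with equal-sum scaling (0.266), quantile normalization (0.0506) and no filter on low values (0.0548). It also ended without ad libitum replicate 1, 2 or 3 (limma adjusted p = 0.0545, 0.0901 and 0.108) and without fasted replicate 1, 2 or 4 (0.0885, 0.0870 and 0.0717).

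Of the signalling genes between the receptors and AKT, mTORC1 and FoxO, 5 of 33 rose and 4 fell, with a median log2 change of 0.0010, a share of calls near the 25.8% of all tested genes. Akt2, the AKT kinase gene known for insulin-driven glucose uptake, fell most. It was at 28.7, 25.8, 25.6 and 23.3 FPKM in fed and at 16.4, 16.0, 14.2 and 15.8 FPKM in fasted libraries, so that every fasted library lay below every fed one. Its log2 change was -0.69 (SE 0.068, limma adjusted p = 1.07e-04). Its paralog Akt1 had a log2 change of 0.077 and did not pass (limma adjusted p = 0.453), and the difference between Akt1 and Akt2 was not tested.

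Tsc1, which encodes part of the complex that restrains mTORC1, rose from 9.68 to 12.5 FPKM, a log2 change of 0.33 with limma adjusted p = 8.74e-04. Rheb, the small GTPase that turns mTORC1 on and is held back by that complex, fell from 40.01 to 31.6 FPKM, a log2 change of -0.33 with limma adjusted p = 0.00309. Phlpp1, which encodes a phosphatase that switches AKT off, had a log2 change of -0.25 with limma adjusted p = 0.00318. With equal-sum scaling the calls of Rheb and Phlpp1 ended (limma adjusted p = 0.159 and 0.407), and those of Akt2 and Tsc1 did not.

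**Figure D4:**
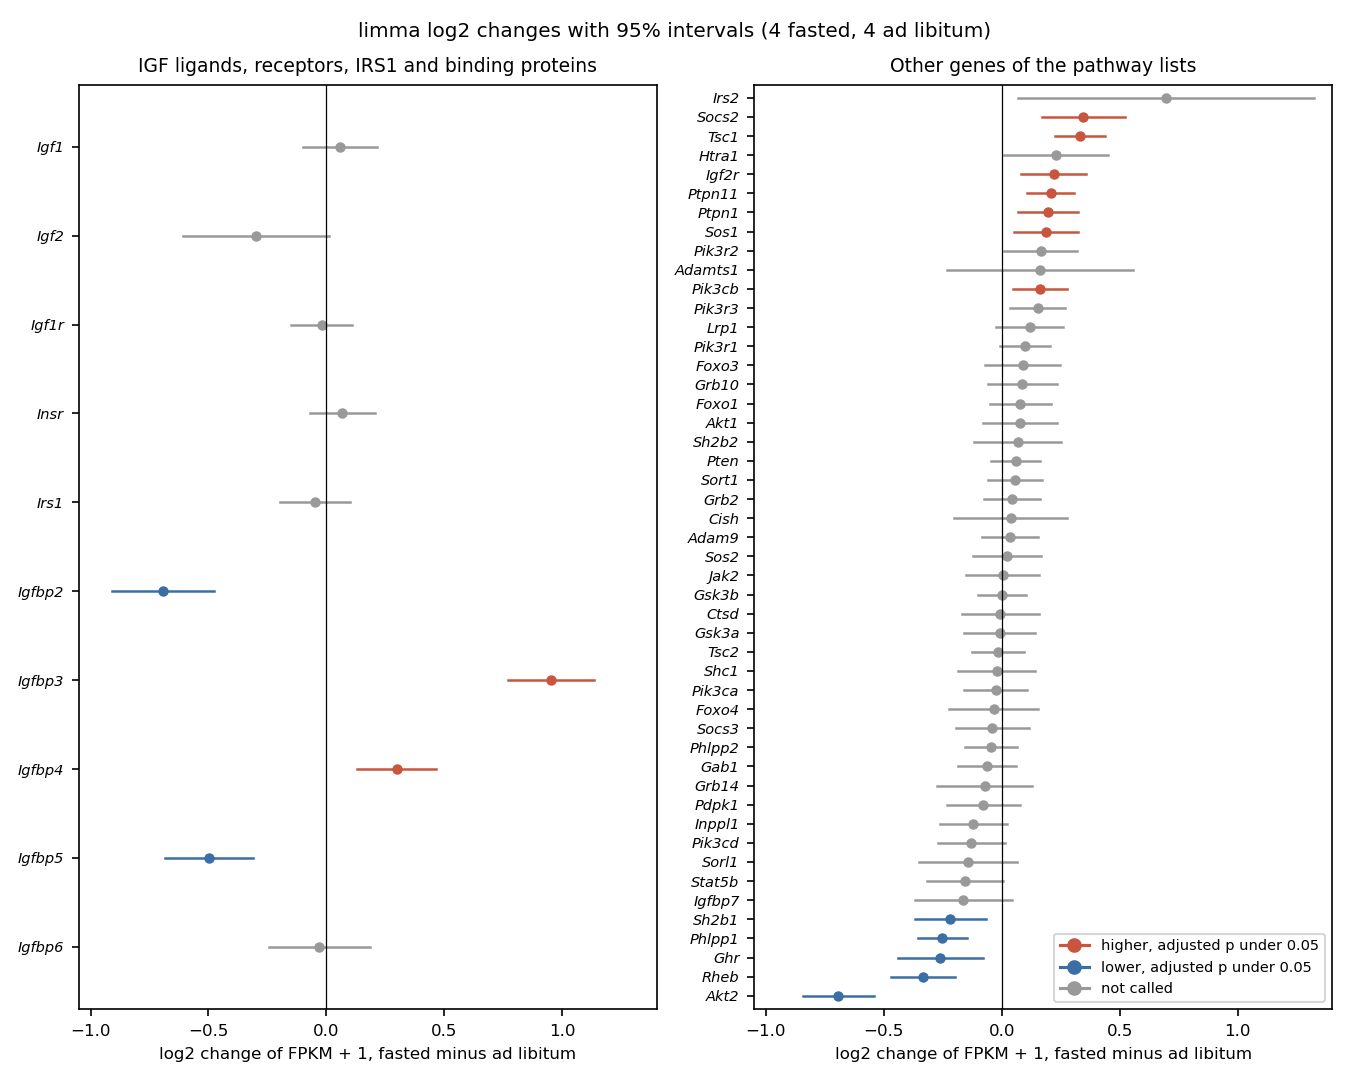
Log2 changes of FPKM + 1 (fasted minus ad libitum, 4 libraries each) with 95% intervals from limma, for the 10 IGF genes on the left and other tested pathway genes on the right, sorted by size. Red is higher and blue lower at adjusted p under 0.05, grey is not called: 4 binding proteins are coloured on the left, and Akt2, at -0.69, is lowest on the right.

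The genes most like a member were sought through how far each library lay from the mean of its group, over the 8 libraries and the 8259 genes that averaged 5 FPKM or more. They were Eif1a, Dnmt3a, Fam217b, Hist2h2aa1 and Etnppl for Igfbp3 (Pearson r of 0.896 to 0.916), and the highest r was 0.981 for Igfbp4 (Brap), 0.987 for Igfbp2 (Tmem25), 0.984 for Igfbp5 (Fopnl) and 0.980 for Igf2 (Gna13). These are descriptions over 8 libraries, and the depth and scaling of each library enter the values of all genes. Among 8259 candidates and with so few libraries, high values of r also arise by chance. How high they would be by chance was not computed, so these genes are not read as partners of the members.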

How the data were processed

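RNA-seq was read from 8 libraries of occipital cortex, grouped by the treatment label, with replicate numbers from the titles. Per the labels' protocols, total RNA was extracted with QIAzol and libraries were made by Illumina's protocol. Per the submitters' processing notes, TopHat and the build mm10 were used. The quantifier, annotation and strandedness were not given in the sources used here. The values deposited by the authors were taken as FPKM from their description, since no label or header names the unit. Depth was estimated from the densest value of FPKM times transcript length in a fixed window and is uncertain. Of 24883 rows, the highest-mean row was kept for each of 282 repeated symbols. Genes that reached 1 FPKM in 4 or more libraries were fitted with limma 3.58.1 (R 4.3.3) on log2(FPKM + 1), with trend and robust moderation and group as the only term, tested on simulated data. Python 3.11.15 made tables and figures. Coordinates are from GENCODE M21 (GRCm38, the assembly of mm10).

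The members and lists were chosen with earlier results of these data known. All 10 members are named, with up to 4 called genes per pathway list (or the 2 of lowest p in a list without calls), and the genes most like a called member or Igf2. Every other gene given with values was named after its values were seen. The replicate numbers may pair libraries, but no label says so. The fit as designed held no term for them, and a block for them was an alternative. Deviations of same-numbered libraries correlated at 0.574, 0.496, 0.382 and 0.523 across all tested genes, and at 0.335, 0.193, 0.076 and 0.371 across 11156 autosomal protein-coding genes. Over the autosomal genes number 3 was thus under the bound of 0.1 set for pairing. Numbers 1, 2 and 4 had the same Xist and Y-linked state in both groups, which enters the correlations across all tested genes. Libraries of different numbers ran from -0.546 to 0.381 and from -0.348 to 0.227, so that over the autosomal genes some passed those of numbers 2 and 3.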

Additional observations from a re-analysis of the deposited data

Results flagged for a closer look

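Ad libitum replicate 4 was far below the rest of its group for Igfbp2, at 10.9 FPKM against 14.1 to 14.3 in the other 3. Fasted replicate 4 was far below the rest of its group for Igfbp5, at 22.3 FPKM against 29.0 to 30.1. In each case the gap to the nearest library took most of the group's range (0.951 and 0.861 of it), above the critical value of Dixon's test at 95% for groups of 4. Of 40 groups examined (20 genes), these 2 passed, and chance flags about 5% of groups. Without ad libitum replicate 4 the log2 change of Igfbp2 was -0.78, and without fasted replicate 4 that of Igfbp5 was -0.40, both called.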

How the results depend on the processing

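Under 17 alternatives, each of the 10 members kept its side of the threshold in every fit that tested it (168 results). The filter of 5 FPKM left out Igf1 and Irs1. Igfbp3 passed that filter only through the fasted libraries, at 5.74 to 6.38 FPKM against 2.16 to 3.01 in fed ones. Its call in that fit is therefore no separate support. The same holds for Igf2r among the other genes, at 5.02 to 5.49 FPKM in fasted and 4.004 to 4.79 in fed libraries. The directions of Igfbp2, Igfbp3, Igfbp4, Igfbp5, Igf1, Igf2 and Insr held throughout, and the uncalled Igf1r, Irs1 and Igfbp6 changed sign in 3, 1 and 3 of the alternatives. Over the alternatives the log2 change ran from 0.88 to 1.17 for Igfbp3, 0.22 to 0.42 for Igfbp4, -0.78 to -0.58 for Igfbp2 and -0.54 to -0.37 for Igfbp5, with adjusted p of 0.000485, 0.0410, 0.00421 and 0.00937 at most. Over all genes, 1792 were higher with quantile normalization and 534 lower with equal-sum scaling, against 1183 and 2015 in the fit as designed. The cause was not tested. With the replicate number as a block 1773 genes were higher and 2733 lower, and Igfbp3, Igfbp4, Igfbp2 and Igfbp5 were at adjusted p = 9.04e-05, 0.0150, 1.25e-04 and 2.23e-04. The block gave calls to Irs2 and Htra1 and changed no other call among the 20 genes described with their fits. Leaving out a library in turn gave 833 to 1193 genes higher and 1362 to 2529 lower. Of 336 gene results under alternatives 16 lost a call, 6 gained one and none turned direction with a call. Igf1, the lowest member, had the fewest fragments per base behind its value.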

Other observations

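Enpp1, which encodes a membrane enzyme known to bind and inhibit the insulin receptor, is named after its values were seen. It was at 0.548 to 0.684 FPKM in ad libitum libraries and at 0.221 to 0.371 FPKM in fasted ones, without overlap, and did not pass the filter on low values. In the fit without that filter its log2 change was -0.30 with limma adjusted p = 0.00480, on a scale that understates the change of so low a gene. Stc1, which encodes an inhibitor of the pappalysins, likewise under the filter and named after its values were seen, was at 0.6263 to 0.8291 FPKM in ad libitum and 0.852 to 1.097 FPKM in fasted libraries, also without overlap. Igfals, at 0 to 0.0517 FPKM in ad libitum and 0.071 to 0.189 in fasted libraries, and Pappa were likewise untested and without overlap. Groups without overlap made up 27.6% of tested genes, and the share among genes under the filter was not counted. These genes are therefore not read as singled out.

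The growth hormone gene Gh was at 3.27 FPKM in ad libitum replicate 1 and 5.43 FPKM in fasted replicate 1, and at 0 to 0.245 FPKM in the other 6 libraries.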
